A study of Mus musculus with 6 samples.

Results

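The 10 genes described here encode proteins of growing axons and growth cones, the motile tips with which axons extend: Gap43, Basp1 and Marcks, the CRMP family (Crmp1, Dpysl2, Dpysl3, Dpysl4 and Dpysl5) and the stathmins Stmn1 and Stmn2. They were chosen by gene symbol, as 10 of the 55421 genes for which the authors deposited a count and a TPM value per mouse. RNA sequencing of the cerebral cortex compared 3 mice of 6 months of age (mice 10, 11 and 17) with 3 mice of 24 months of age (mice 2, 4 and 5). All 6 were wild-type male C57BL/6J mice, anaesthetised with isoflurane before cervical dislocation, and each library was made from 10 ng of total RNA of the powdered cortex with a low-input kit. The labels give each library its own mouse number, so the libraries are taken as separate animals. In tissue of this kind, fewer cells of a type and less RNA per cell cannot be told apart.

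A growth cone extends where microtubules are added and actin is turned over beneath the membrane. Gap43, Basp1 and Marcks are lipid-anchored proteins of the inner face of the plasma membrane that are phosphorylated by protein kinase C and bind calmodulin or membrane phosphoinositides. CRMPs (collapsin response mediator proteins) bind tubulin and relay the repulsive signal of semaphorin 3A, whereas stathmins bind tubulin dimers and keep them out of microtubules. These genes are known for their high expression in developing neurons, and several of them remain expressed in the adult cortex, where they are tied to plasticity of axons and synapses.

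The CRMP genes and the stathmin genes are paralogs, so it was asked first whether reads could be assigned to one member rather than another. The reads were 75 bases long and lost 3 bases at each end in trimming, which leaves at most 69 bases. In no pair of the CRMP genes, and in no pair of Stmn1 to Stmn4, did the coding sequences share an identical window of 69 bases. The closest windows had 5 mismatches in Crmp1 and Dpysl2 and also in Dpysl2 and Dpysl4, and 7 in Stmn1 and Stmn2. The closest stretch of Stmn1 and Stmn2 is printed because it is where a read of these genes would be hardest to assign, and capitals mark the bases at which the pair differs. Both are written 5′ to 3′ on the coding strand, from the GRCm38 transcripts of GENCODE vM21. The Stmn1 stretch lies in exon 3 (chr4:134472852-134472920, plus strand) and that of Stmn2 in exon 4 (chr3:8554840-8554908, plus strand).
Stmn1: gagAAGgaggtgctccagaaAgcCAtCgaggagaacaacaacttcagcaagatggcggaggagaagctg
Stmn2: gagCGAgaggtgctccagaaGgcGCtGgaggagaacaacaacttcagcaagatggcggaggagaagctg

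A read of full length over this stretch meets 7 bases that tell the genes apart. Stmn1 was the only member whose exons overlap those of another annotated gene, a microRNA gene (Gm23634) that shares 66 bases with it and had 31 counts in all, against 44810 for Stmn1. Counts of the members are therefore read here as those of separate genes.

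The libraries held 29495379 to 36494240 counts, and the lowest count of any member was 359 (Dpysl5 in mouse 5). The 24-month libraries had counts on more genes (40208 to 43561) than the 6-month libraries (33974 to 35651), and their TMM scaling factors were higher (1.04 to 1.10 against 0.921 to 0.946). Neuronal markers were present in all libraries. Their summed level over the 10 markers was 5321 to 5946 TPM at 6 months and 4449 to 5381 TPM at 24 months. In counts scaled with the TMM factors, 9 of the 10 markers were fitted lower at 24 months. For 6 of the 10, all 24-month libraries lay below all 6-month libraries on this scale. Slc17a7, the vesicular glutamate transporter of cortical excitatory neurons, was not among these 6. It had means of 147 and 152 TPM at 6 and 24 months, but a log2 fold change of -0.057 in scaled counts. No marker of the neuronal list was at 0. Of these 10 markers, 3 were lower at 24 months at 10% FDR (Syt1 and Neurod6 among them), a change that moves with those of the members described below, and its part in them was not tested.

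On the TPM scale, which corrects for gene length and so allows genes to be compared with each other, the members spanned a 363-fold range. Dpysl2 had a mean of 2799 TPM over the 6 libraries and made up 56.8% of the members' summed TPM. Gap43 followed with 1062 TPM and 21.5% of the sum. Stmn1 (426 TPM), Basp1 (251 TPM), Stmn2 (128 TPM), Marcks (108 TPM) and Crmp1 (101 TPM) lay between, and Dpysl4 (22.7 TPM), Dpysl3 (22.0 TPM) and Dpysl5 (7.71 TPM) were the lowest. Among neighbours in this order, the library ranges of Stmn2 and Marcks, of Marcks and Crmp1 and of Dpysl4 and Dpysl3 overlapped. Within libraries, Stmn2 was above Marcks in 6 of 6, Marcks above Crmp1 in 5 of 6 and Dpysl4 above Dpysl3 in 3 of 6. All other neighbours had ranges that did not overlap.

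**Figure D1:**
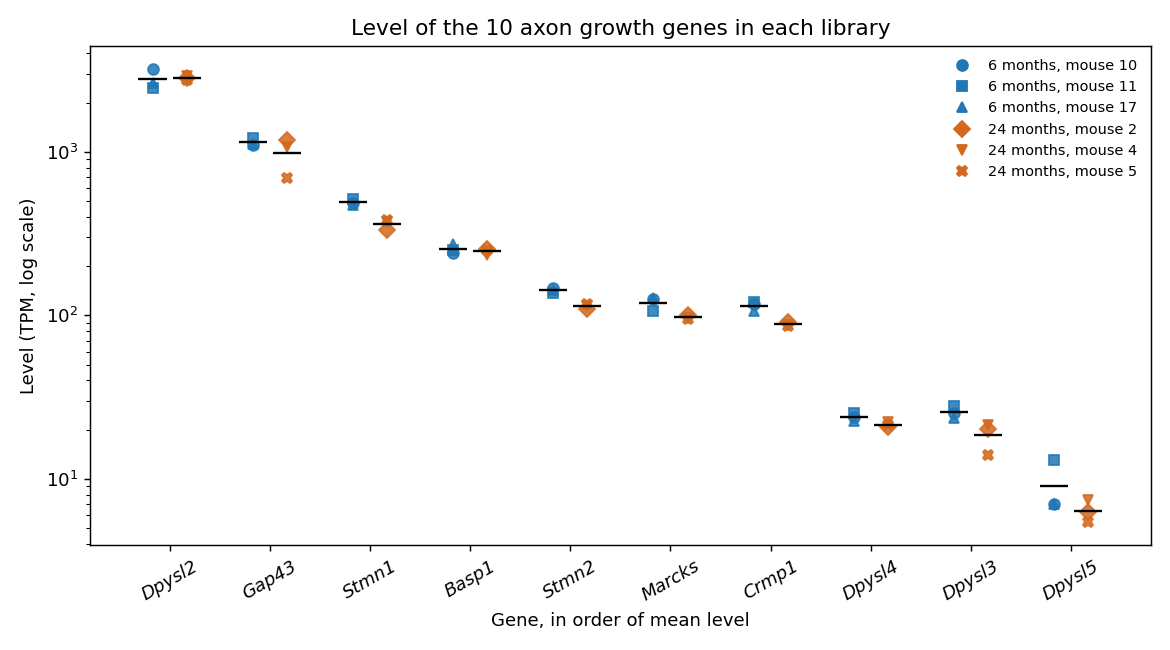
Level of each member in each library (y axis, TPM on a log scale; x axis, the 10 genes in order of mean level), with 6-month libraries in blue, 24-month libraries in orange and a bar at the mean of each age. The range runs from Dpysl2 at 2799 TPM to Dpysl5 at 7.71 TPM, and Gap43 and Dpysl3 each have 1 library, mouse 5, set below the other 24-month libraries.

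For the comparison of the ages, counts were scaled with edgeR's TMM factors to CPM, counts relative to the scaled library total, log2 fold changes compare 24 with 6 months, and adjusted p-values come from the quasi-likelihood test of edgeR, adjusted by Benjamini and Hochberg's method over the 32905 genes tested. At 1% FDR, 0 members were called by this test, as were 0 of all genes (0% of those tested), whereas 7 members had an unadjusted p under 0.05. The likelihood ratio and exact tests of edgeR and the Wald test of DESeq2 each called 2 members at 1% FDR, Crmp1 and Stmn1, both lower at 24 months, where 0.766%, 0.574% and 0.423% of all genes were called lower. At 10% FDR, 6 members were called by the quasi-likelihood test, all lower at 24 months: Marcks, Crmp1, Dpysl3, Dpysl4, Stmn1 and Stmn2. Lower calls at 10% FDR took in 8.33% of all genes tested and 25.4% of the 10028 genes with a mean of at least 10 CPM, the range in which all members lie.

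Among the membrane phosphoproteins, Marcks fell with age, while the differences of Gap43 and Basp1 did not pass the test. Gap43 (ENSMUSG00000047261.9, GRCm38 chromosome 16 from 42248442 to 42340651, minus strand, with 4 exons), the growth-associated protein of axons and presynaptic terminals, had 481, 521 and 481 CPM in the 6-month mice 10, 11 and 17 and 470.0, 430.1 and 278 CPM in the 24-month mice 2, 4 and 5. The ages did not overlap in scaled CPM, but mice 2 and 4 lay closer to the 6-month libraries and mouse 5 far below all others. They did overlap in TPM and with library totals alone, where the log2 fold change was -0.13 (adjusted p = 0.639, quasi-likelihood test of edgeR). The coefficient of variation was accordingly 4.60% at 6 months and 25.9% at 24 months. On the log2 scale the change was -0.33 ± 0.17 (SE, 3 mice per age; adjusted p = 0.202, quasi-likelihood test of edgeR), and without mouse 5 it was -0.13.

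Marcks (ENSMUSG00000069662.5, chromosome 10 from 37133375 to 37138920, minus strand, 2 exons) encodes the myristoylated substrate of protein kinase C that binds actin filaments and is made in glia as well as in neurons. Its level was 146, 121 and 146 CPM at 6 months and 107, 103 and 101 CPM at 24 months. The 24-month libraries were closely grouped below the lowest 6-month library, that of mouse 11. The log2 fold change was -0.41 ± 0.10 (SE; adjusted p = 0.0556, quasi-likelihood test of edgeR), and with scaling by library totals alone it was -0.22 (adjusted p = 0.186, same test). Basp1 (ENSMUSG00000045763.8, chromosome 15 from 25363277 to 25413764, minus strand, 3 exons), a Gap43-like protein of axon terminals, had 138, 143 and 156 CPM at 6 months and 134, 123 and 133 CPM at 24 months. Its ages were apart by a narrow margin, 138 against 134 CPM. Its log2 fold change of -0.16 ± 0.09 (SE) had an adjusted p of 0.245 and became 0.03 when library totals alone were used.

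In the CRMP family, Crmp1, Dpysl3 and Dpysl4 fell at 10% FDR in the quasi-likelihood test, Dpysl5 did not reach it, and Dpysl2, by far the most abundant, had overlapping ages. Crmp1 (ENSMUSG00000029121.16, chromosome 5 from 37241940 to 37292133, plus strand, 17 merged exons), which encodes a tubulin-binding protein of semaphorin signalling, had 237, 240 and 213 CPM at 6 months. At 24 months it had 169, 162 and 158 CPM, so that every 24-month library lay well below every 6-month library. Its log2 fold change was -0.50 ± 0.09 (SE; adjusted p = 0.0518, quasi-likelihood test of edgeR), a decrease of 29.1% in mean CPM.

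Dpysl2 (ENSMUSG00000022048.8, chromosome 14 from 66802864 to 66868688, minus strand, 14 exons) encodes CRMP2, which carries tubulin dimers to growing microtubules, and it is also made by oligodendrocytes. It had 4173, 3142 and 3380 CPM at 6 months and 3345, 3457 and 3265 CPM at 24 months. Mouse 10 was the highest and mouse 11 the lowest of all 6, with the 24-month libraries between them. The log2 fold change of -0.09 had a 95% interval from -0.33 to 0.16 and turned to 0.11 with library totals alone and to 0.04 without mouse 10, so no direction is given for Dpysl2. The summed level of the 7 oligodendrocyte markers was 1426 to 2243 TPM at 6 months and 831 to 2576 TPM at 24 months, with mouse 2 lowest and mouse 5 highest, none of the markers was at 0, and their part in the level of Dpysl2 was not tested.

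Dpysl3 (ENSMUSG00000024501.20, chromosome 18 from 43320984 to 43438286, minus strand, 18 merged exons), the gene of CRMP4, had 47.6, 52.1 and 44.2 CPM at 6 months and 35.0, 37.0 and 24.2 CPM at 24 months. The ages did not overlap, and mouse 5 was again the lowest, as for Gap43. The decrease (log2 fold change -0.58 ± 0.16, SE; adjusted p = 0.0615, quasi-likelihood test of edgeR) lost its call with library totals alone (-0.39, adjusted p = 0.161).

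Dpysl4 (ENSMUSG00000025478.15, chromosome 7 from 139086001 to 139102704, plus strand, 13 merged exons), the gene of CRMP3, had 40.8, 42.9 and 38.2 CPM at 6 months and 32.7, 34.8 and 33.5 CPM at 24 months. Each age was closely grouped, with no overlap in scaled CPM or TPM. With library totals alone the ages overlapped and the log2 fold change was -0.08 (adjusted p = 0.605, quasi-likelihood test of edgeR). The log2 fold change of -0.27 ± 0.10 (SE; adjusted p = 0.0994, quasi-likelihood test of edgeR) lay at the edge of the 10% threshold, and no other setting tried kept that call. Dpysl5 (ENSMUSG00000029168.14, chromosome 5 from 30711564 to 30799375, plus strand, 15 merged exons), the gene of CRMP5, had 14.8, 27.2 and 14.8 CPM at 6 months and 12.1, 14.4 and 10.6 CPM at 24 months. Mouse 11 stood far above the other 6-month libraries, which were themselves only just above mouse 4. Its log2 fold change of -0.61 ± 0.24 (SE) had an adjusted p of 0.117, against 0.0872 in the likelihood ratio test and 0.0986 in the exact test of edgeR, and without mouse 11 it was -0.22.

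Both stathmins fell. Stmn1 (ENSMUSG00000028832.11, chromosome 4 from 134468320 to 134473843, plus strand, 4 merged exons) encodes the soluble stathmin that sequesters tubulin dimers. Its level was 267, 279 and 257 CPM at 6 months and 167, 188 and 194 CPM at 24 months. The lowest 6-month library, mouse 17, was thus well above the highest 24-month library, mouse 5. Mean CPM was 31.6% lower (log2 fold change -0.55 ± 0.09, SE; adjusted p = 0.0518, quasi-likelihood test of edgeR).

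Stmn2 (ENSMUSG00000027500.10, chromosome 3 from 8509360 to 8561606, plus strand, 5 exons) encodes a neuron-specific stathmin that is anchored to membranes by an added N-terminal stretch. It had 236, 218 and 227 CPM at 6 months and 160, 168 and 172 CPM at 24 months. These values left a gap between the ages wider than the range within either. The log2 fold change was -0.45 ± 0.08 (SE; adjusted p = 0.0518, quasi-likelihood test of edgeR), a decrease of 26.6%. The markers of immature neurons, in which stathmins and CRMPs are most abundant, summed to 103 to 120 TPM at 6 months and 87.8 to 95.0 TPM at 24 months over 7 markers. None of the 7 was at 0 in all libraries, but Igfbpl1 had counts of 1, 20 and 0 at 6 months and 11, 8 and 5 at 24 months. The part of these markers in the results was not tested. Of these 7, Sox11 and Neurod1 were lower at 10% FDR (28.6%, against 25.4% of genes of at least 10 CPM). Dcx, which binds microtubules of migrating neurons, had 8.92 and 8.63 TPM.

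Across the members, all 10 fitted log2 fold changes were negative, as were 41.6% of those of all genes tested and 84.1% of those of genes of at least 10 CPM, and those of Basp1 and Dpysl2 turned positive with library totals alone. A negative value is therefore common at the expression level of the members. In scaled CPM, 9 of the 10 members had all 24-month libraries below all 6-month libraries, compared with 16.3% of all genes and 45.7% of the genes of at least 10 CPM. An unadjusted p under 0.05 with a lower level was found for 7 members, 13.1% of all genes and 38.5% of genes of at least 10 CPM. The members' median log2 fold change was -0.43, beside 0.15 over all genes tested and -0.20 over genes of at least 10 CPM.

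These values depend on the scaling between libraries. With library totals alone, the median of all genes moved to 0.34, that of genes of at least 10 CPM to -0.011 and that of the members to -0.24. Among genes of at least 10 CPM, those with an unadjusted p under 0.05 were 38.5% lower and 1.04% higher with TMM factors, and 8.05% lower and 5.94% higher with library totals. Of the members, 4 (Crmp1, Dpysl3, Stmn1 and Stmn2) then kept an unadjusted p under 0.05, and 3 of them (Crmp1, Stmn1 and Stmn2) stayed at 10% FDR. Of all genes tested, 0.966% were then called lower at 10% FDR. The ages then did not overlap for these 4 members, where 13.1% of genes of at least 10 CPM were apart in the lower and 8.84% in the higher direction. Relative to the genes of at least 10 CPM, the members' median was -0.23 with TMM factors and -0.22 with library totals on the log2 scale. A change of scaling shifts all genes by nearly the same amount, so this difference could hardly change and is no check on the scaling. In TPM, where no factor between libraries enters beyond the total, the ages did not overlap for 6 members (Marcks, Crmp1, Dpysl3, Dpysl4, Stmn1 and Stmn2), all lower at 24 months, compared with 24.5% of genes of at least 10 CPM.

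**Figure D2:**
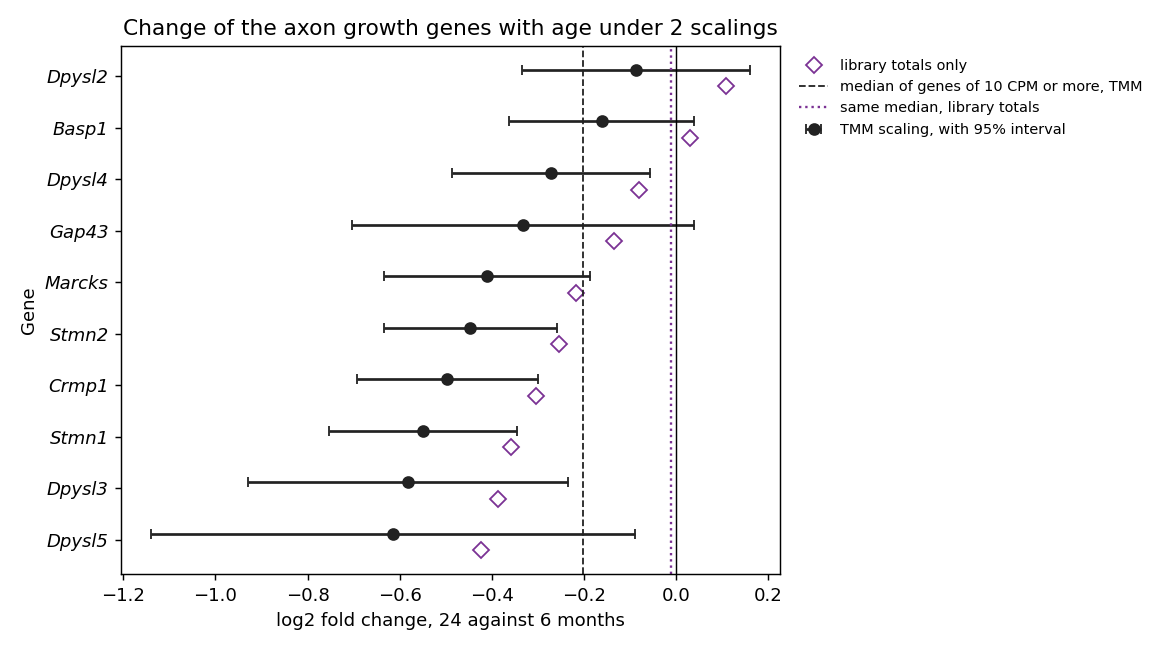
Log2 fold change of each member for 24 against 6 months (x axis) with TMM factors (black points, with 95% intervals) and with library totals alone (purple diamonds), and the median of genes of at least 10 CPM under each scaling (vertical lines at -0.20 and -0.011). All members move to the right with library totals, Basp1 and Dpysl2 cross 0, and the order of the members is the same.

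Calls at 10% FDR also depended on single libraries. Without mouse 10, without mouse 11 or without mouse 4, 0 members were called at 10% FDR by edgeR's quasi-likelihood test, although 7, 5 and 7 members still had an unadjusted p under 0.05. In each of these fits 0% of all genes tested were called lower. Of genes of at least 10 CPM, 26.7%, 15.4% and 25.7% were lower there with an unadjusted p under 0.05. Without mouse 2 the test called 2 members (Crmp1 and Stmn1), without mouse 17 it called 4 and without mouse 5 it called 5. Of all genes tested, 0.346%, 3.9% and 11.6% were then called lower, in the same order. With any 1 mouse left out, the log2 fold changes of all members but Dpysl2 (-0.14 to 0.041) stayed negative. The ranges were -0.55 to -0.43 for Crmp1, -0.46 to -0.37 for Marcks and -0.69 to -0.41 for Dpysl3. They were -0.59 to -0.48 for Stmn1, -0.46 to -0.41 for Stmn2 and -0.31 to -0.19 for Dpysl4. Gap43 (-0.47 to -0.13), Basp1 (-0.20 to -0.11) and Dpysl5 (-0.77 to -0.22) came closer to no change.

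The summed level of the members is set mainly by Dpysl2 and Gap43. The summed TPM of all 10 was 5096 ± 353 (SD, n = 3) at 6 months and 4761 ± 299.6 (SD, n = 3) at 24 months, a difference of -335 TPM within the spread between mice (exact permutation test, two-sided, p = 0.6). Without mouse 10, the highest library, the difference was -132 TPM. In scaled CPM, the sum was 5782, 4786 and 4958 at 6 months and 4632, 4718 and 4369 at 24 months, without overlap (p = 0.1 in the same exact test). Without Dpysl2 the sum was 2276, 2405 and 2287 TPM at 6 months and 2108, 2030 and 1667 TPM at 24 months. All 24-month values of this sum were lower than all 6-month values. A two-sided exact permutation test gave p = 0.1, which is the lower limit with 3 libraries per age, and mouse 5, which has the lowest Gap43, was the lowest.

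Ratios within a library do not depend on the scaling between libraries. They describe how the members stood towards each other. Against the mean log2 TPM of the 10 members, Dpysl2 was higher in each 24-month library than in each 6-month library (by 0.32 on the log2 scale), as was Dpysl4 (by 0.12). Of genes of at least 10 CPM, 35.7% were apart in this direction against the same reference, so 2 of 10 members is not a result about the members. The other 8 overlapped. Of the 45 ratios between members, 14 did not overlap between the ages, of which 5 involve Dpysl2 and 4 involve Basp1. This is 31.1% of the ratios, compared with 20.8% of the ratios over all pairs of genes of at least 10 CPM, and the ratios share members. The ratios given next were chosen after their values were seen and have no test.

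The log2 ratio of Dpysl2 to Stmn1 was 2.73, 2.26 and 2.48 at 6 months and 3.09, 2.97 and 2.84 at 24 months, higher by 0.47. That of Basp1 to Stmn1 was -1.02, -1.03 and -0.78 at 6 months and -0.39, -0.67 and -0.61 at 24 months, higher by 0.39. Each older mouse thus had more Dpysl2 and more Basp1 transcript per Stmn1 transcript than each younger mouse. The ratio of Gap43 to Dpysl3 was 5.45, 5.44 and 5.56 at 6 months and 5.86, 5.66 and 5.64 at 24 months, so mouse 5, lowest in both genes, was not set apart in their ratio.

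Against neuronal markers, only the stathmins stood below their 6-month level in each old library. With the mean log2 TPM of the 10 neuronal markers of the same library as the reference, Stmn1 had 0.80, 0.98 and 0.85 at 6 months and 0.64, 0.62 and 0.53 at 24 months. Stmn2 had -0.92, -0.92 and -0.87 at 6 months and -0.97, -1.08 and -1.19 at 24 months. The differences were -0.28 and -0.18 on the log2 scale without overlap, which 6.35% of genes of at least 10 CPM showed in this direction and 11.5% in the other.

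The ages of the other 8 members overlapped on this scale. Crmp1, which fell by 0.50 in scaled CPM, had a mean difference of -0.23 against neuronal markers, and its highest 24-month library (-1.22, mouse 2) lay among the 6-month libraries (-1.29 to -1.11). Gap43 had 1.99, 2.22 and 2.09 at 6 months and 2.46, 2.15 and 1.38 at 24 months, so that the 24-month mice held both the highest value and the lowest. The reference itself, the mean log2 TPM of the neuronal markers, differed by -0.15 between the ages.

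**Figure D3:**
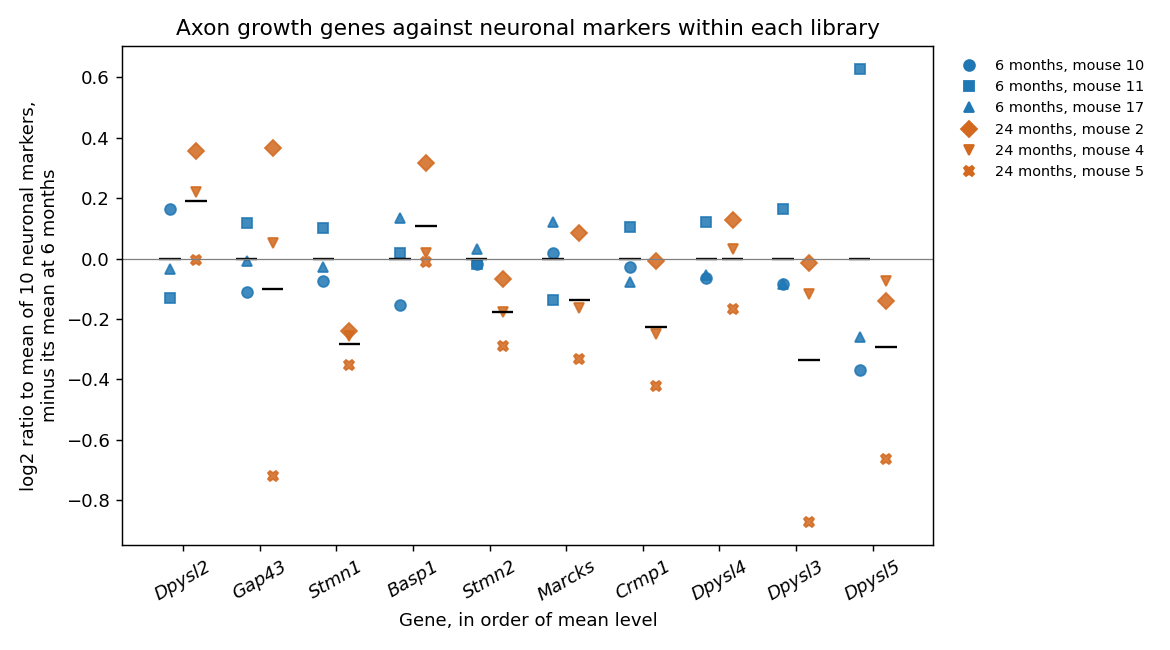
Log2 ratio of each member to the mean of 10 neuronal markers in the same library, minus its mean at 6 months (y axis), for the 10 genes in order of mean level (x axis), with a bar at the mean of each age. Stmn1 and Stmn2 have all 3 orange points below all 3 blue points. Mouse 5 is the lowest point of every member, the stathmins included, except Basp1 and Dpysl2.

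The genes whose profile was most like that of Gap43 were sought among the 10027 other genes of at least 10 CPM, by the root mean square difference of log2 CPM centred on each gene's mean over the 6 libraries. The closest were Camk1g (0.059), Hap1 (0.068), Spag6l (0.077), Ehbp1l1 (0.080) and Panx1 (0.087), against a median of 0.31 over all genes compared. Camk1g encodes a calmodulin-dependent kinase of neurons, Hap1 a huntingtin-associated protein and Panx1 a membrane channel. Camk1g had 83.0, 83.8 and 77.9 CPM at 6 months and 73.5, 66.3 and 47.2 CPM at 24 months, with mouse 5 lowest as for Gap43. Dpysl3 was the nearest member (0.14, with 56 genes closer), followed by Crmp1 (0.23, with 1270 closer). The remaining members were less like Gap43 than at least 1920 other genes.

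The genes that act with the members were taken from 9 lists of 129 genes in all, of which 128 had enough counts to be tested. At 10% FDR, 33 were lower and 3 higher at 24 months in edgeR's quasi-likelihood test, beside 8.33% lower and 10.0% higher among all genes tested. The lower share of 25.8% is near that of genes of at least 10 CPM (25.4%) and is not a result about the lists. The median log2 fold change over the lists was -0.19, close to the -0.20 of genes of at least 10 CPM. With library totals alone, 11 list genes were lower and 5 higher, where 0.966% of all genes tested were called lower. Without mouse 10, mouse 11 or mouse 4 none was called by that test, and 0% of all genes tested were called lower. Without mouse 5 the count was 53 (50 lower and 3 higher), where 11.6% of all genes tested were called lower.

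Among relatives of the members, 2 of 5 were lower (40.0%, against 25.4% of genes of at least 10 CPM). Marcksl1, the Marcks-like protein, had 93.5, 104 and 108 CPM at 6 months and 68.0, 60.7 and 44.0 CPM at 24 months. Its log2 fold change of -0.82 ± 0.15 (SE; adjusted p = 0.0518, quasi-likelihood test of edgeR) was larger than that of any member. The other was Stmn3 (-0.35 ± 0.08), while Stmn4 (-0.13) and the calmodulin-binding Nrgn (-0.21) did not pass, nor did Gprin1 (0.34), a Gap43-like partner of G proteins.

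Of 19 genes of the growth cone cytoskeleton, 6 were lower and 0 higher at 10% FDR (31.6%, against 25.4% of genes of at least 10 CPM), and 17 were fitted lower. Tuba1a, the main alpha tubulin of growing axons, had the largest fall (-0.42 ± 0.09, adjusted p = 0.0518, quasi-likelihood test of edgeR), from 297, 278 and 264 CPM to 215, 207 and 206 CPM. Tubb3, Cfl1, Fscn1, Dbn1 and Cttn also fell, and Evl (0.10) had the largest rise without passing the test. Of 21 kinases, calmodulins and phosphatases that act on the members, 6 were lower and 0 higher. This share of 28.6% is near the 25.4% of genes of at least 10 CPM and is not a result about the list. Cdk5r1, the activator of the kinase Cdk5, fell (-0.39 ± 0.10), whereas Cdk5 (-0.14), Gsk3b (0.01) and Gsk3a (0.18), kinases of CRMPs, did not pass.

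Guidance ligands were divided. Slit1 (-0.63 ± 0.13), Sema3a (-0.60 ± 0.14) and Sema4d (-0.30 ± 0.10) were lower, and Ntn1 (0.53 ± 0.17) and Sema3f (0.92 ± 0.32) higher, out of 15. The lower share was 20.0%, against 25.4% of genes of at least 10 CPM, and 10.0% of all genes tested were called higher. Sema3a, the semaphorin whose signal CRMPs relay, had 43.1, 34.8 and 34.5 CPM at 6 months and 20.6, 25.7 and 27.8 CPM at 24 months, with no overlap. Ntn1 was low, at 2.76, 2.87 and 2.50 CPM and then 3.39, 4.42 and 3.91 CPM. Sema3f was lower still, with counts of 15, 13 and 16 at 6 months and 34, 33 and 19 at 24 months. Its means at 6 and 24 months, 0.45 and 0.85 CPM, lay under the 1 CPM set for naming a list's largest rise. The rise of Sema3f thus rests on few counts.

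Of 25 guidance receptors and adhesion molecules, 10 were lower and 0 higher, a share of 40.0% beside the 25.4% of genes of at least 10 CPM. In this list 24 were fitted lower, and a fitted decrease was also seen in 84.1% of genes of at least 10 CPM. Epha7, an ephrin receptor, had the largest fall (-0.77 ± 0.19, adjusted p = 0.0567, quasi-likelihood test of edgeR), from 180.0, 167 and 135 CPM to 64.8, 102 and 115 CPM. Nrp1, the binding receptor of semaphorin 3A, fell from 36.2, 43.3 and 38.4 CPM to 17.0, 27.4 and 25.5 CPM, and its partner Plxna2 by 0.52 on the log2 scale. The adhesion molecules L1cam (-0.62 ± 0.09), Chl1 (-0.68 ± 0.12) and Ncam1 (-0.39 ± 0.09) fell too. Unc5b (0.42) had the largest rise, without passing the test.

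Of 12 tested neurotrophic factors and receptors, only the Bdnf receptor Ntrk2 was called lower (-0.33 ± 0.09), a share of 8.33% against 25.4% of genes of at least 10 CPM. Gdnf was called higher, as were 10.0% of all genes tested, from counts of 0, 2 and 0 at 6 months and 7, 10 and 5 at 24 months. Gdnf was thus at or under 3 counts in each 6-month library, and no fold is given for it. Ngfr (0.45) and Ret (-0.45) moved most among the others and did not pass. Of 13 factors of axon regeneration, Jun and Sox11 were lower (15.4%, against 25.4% of genes of at least 10 CPM). Jun had 92.4, 102 and 76.6 CPM at 6 months and 55.1, 37.1 and 45.9 CPM at 24 months (-0.97 ± 0.16, adjusted p = 0.0518, quasi-likelihood test of edgeR).

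Jun is also an immediate early gene, and the 5 immediate early genes used as a check summed to 1455 to 3038 TPM at 6 months and 559 to 3366 TPM at 24 months, none of them at 0, and their part in the result for Jun was not tested. Sox11, which is also in the list of immature neuron markers, had 50.2, 49.5 and 52.4 CPM at 6 months and 36.3, 33.9 and 35.0 CPM at 24 months. Cebpb (0.79) had the largest rise and did not pass, with 0.035 without mouse 2 and 2.01 without mouse 17. Of 14 inhibitors of axon growth and their receptors, only the receptor Ptprs was called (-0.33 ± 0.10), with Tnr at -0.35 (adjusted p = 0.109, quasi-likelihood test of edgeR) and Rtn4r at 0.25. Of 4 proteins that bind the Gap43 mRNA, Elavl2 (-0.50 ± 0.16) and Elavl4 (-0.35 ± 0.11) were lower, and Khsrp was at 0.21.

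**Figure D4:**
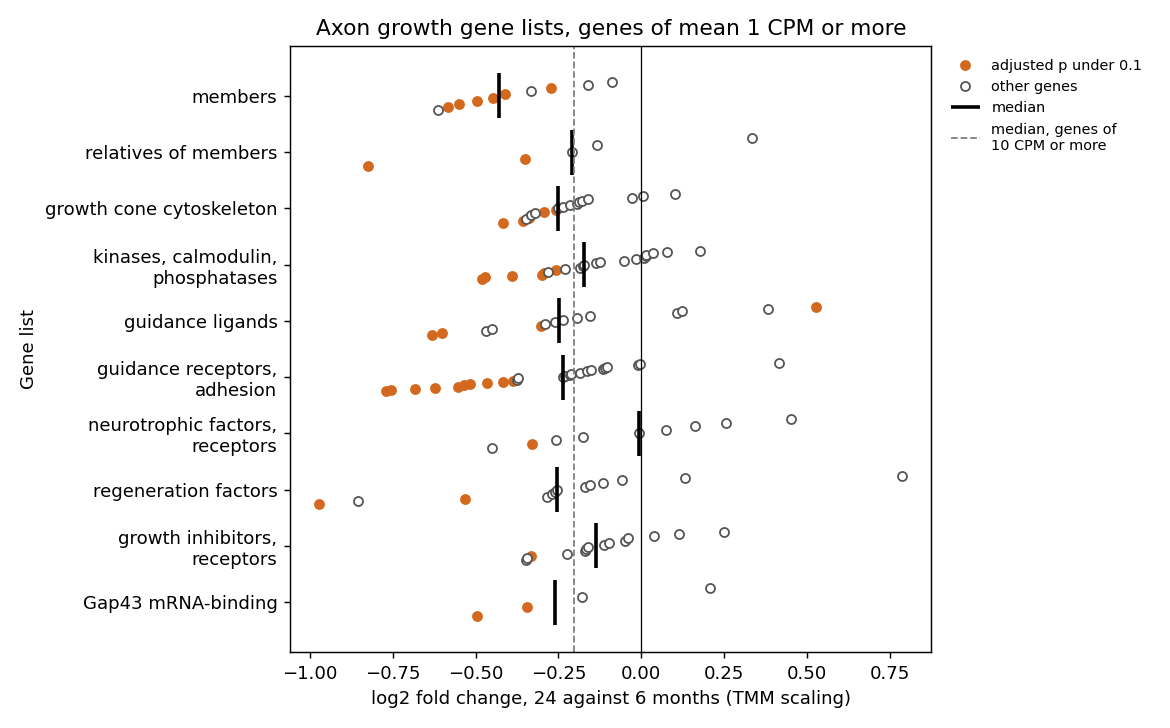
Log2 fold change for 24 against 6 months with TMM factors (x axis) of the genes of each list with a mean of at least 1 CPM (y axis, 1 list per line), filled where the adjusted p was under 0.1, with the median of each list as a bar and the median of genes of at least 10 CPM at -0.20 as a dashed line. The members' bar lies at -0.43, to the left of the dashed line, and the only filled point to the right of 0 is Ntn1 among the guidance ligands.

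The astrocyte markers summed to 2878 to 3068 TPM at 6 months and 3327 to 3476 TPM at 24 months over 7 markers, none of which was at 0. Most of this sum is Aldoc (1782 and 2088 TPM), and 4 of the 7 markers were fitted lower at 24 months. Gfap was called higher at 10% FDR (131 and 229 TPM), while Aqp4 had all 24-month libraries below the 6-month libraries (log2 fold change -0.40) without passing 10% FDR. Microglial markers summed to 621 to 631 TPM and 670 to 700.1 TPM over 7 markers, also with none at 0, of which Csf1r was lower and Tmem119 higher at 10% FDR. Each list thus held markers fitted lower and markers fitted higher, and their part in the members' results was not tested.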

How the data were processed

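RNA-seq of the cortex of 6 mice was analysed, 3 per age. Per the labels and the study's methods, the authors trimmed the single-end reads (Trim Galore 0.6.4), mapped them to GRCm38 (STAR 2.7.3a), counted them on exons with featureCounts (Subread 2.0.0) at a mapping quality of at least 15 and deposited a count per gene. The stated options split reads with several positions into fractions, but the deposited counts are whole numbers and were used unchanged. The authors also deposited a TPM value per gene, derived from counts and gene lengths.

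Counts were tested with edgeR 4.0.16 (R 4.3.3; TMM factors, genes of 10 or more counts in total, quasi-likelihood test, no covariate), with FDR thresholds of 1% and 10%. The step was tested on simulated data. Within-library ratios used log2(TPM + 0.01). Positions and sequences came from GENCODE vM21, and Python 3.11.15 was used for these. Alternatives were other tests (DESeq2 1.42.0 and limma 3.58.1 among them), scalings, filters, log2(TPM + 1) and log2(TPM + 0.1), and each mouse left out. Of DESeq2's adjusted p-values, 5745 are missing and were left as missing.

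The members and lists were chosen with earlier results of these data known. Named were all members, the gene of largest rise and of largest fall in each list among genes of at least 1 CPM, and the 5 genes most like Gap43, apart from items that are not reported here. Other list genes, the ratios between members and the comparison with genes of at least 10 CPM were chosen after values were seen. Marker lists for oligodendrocyte precursors, endothelium, erythrocytes, choroid plexus, meningeal fibroblasts and striatum were also read, and 0 of their markers were at 0 in all libraries. Their summed TPM ranged from 104 to 161, 193 to 358, 278 to 443, 40.8 to 121, 12.0 to 34.9 and 98.3 to 154 over the 6 libraries.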

Additional observations from a re-analysis of the deposited data

How the results depend on the processing

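No paired analysis was possible because the mice of the ages share no replicate number. Members called at 1% FDR numbered 0 in the reported fit and 2 with the likelihood ratio test, the exact test and DESeq2. Members called at 10% FDR numbered 6 in the reported fit, 3 with library totals alone, with TMM factors over genes of at least 1 CPM and with filterByExpr, 0 with genes of a mean of at least 1 CPM or limma on log2(TPM + 1), 1 with limma on log2(TPM + 0.1), and 0 to 5 with a mouse left out. Of all genes tested, the reported fit called 8.33% lower. In the order just given, the other settings called 0.966%, 1.39%, 2.1%, 0.038%, 0.0206% and 0.13% lower, and 0% to 11.6% with a mouse left out. These shares are over all genes tested, not over genes of at least 10 CPM. The members' median log2 fold change was then -0.24 (library totals), -0.27 (TMM over genes of at least 1 CPM), -0.31 (filterByExpr), -0.27 (mean of at least 1 CPM), -0.31 on both TPM scales and -0.45 to -0.34 with a mouse left out. Relative to genes of at least 10 CPM it lay between -0.27 and -0.17 in every fit run, though fits that differ only in scaling could hardly move it. Members lower with an unadjusted p under 0.05 numbered 4 with library totals and 5 to 7 with a mouse left out. Members without overlap numbered 4 with library totals or with TMM over genes of at least 1 CPM, and 7 to 9 with a mouse left out. List genes called at 10% FDR numbered 36 in the reported fit, then 16, 16, 12, 0, 0 and 2 in the order of the medians above, and 0 to 53 with a mouse left out.

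Dpysl2 turned to 0.11 (library totals), 0.070 (TMM over genes of at least 1 CPM), 0.069 (mean of at least 1 CPM), 0.027 (filterByExpr) and 0.036 (limma on both scales), and lay between -0.14 and 0.041 with a mouse left out, the latter without mouse 10. Basp1 turned to 0.031 with library totals. With a mouse left out, Gprin1 lay between -0.15 and 1.40 and Evl between -0.094 and 0.24, both negative without mouse 10, while Unc5b lay between 0.092 and 0.98, Rtn4r between 0.013 and 0.79 (both past 10% FDR without mouse 17, with adjusted p of 0.0968 and 0.0922 in the quasi-likelihood test of edgeR) and Ngfr between 0.26 and 0.84. The members that stood apart from the members' mean numbered 2, and 2 to 5 with a mouse left out. Against neuronal markers, a reference added after the data were seen, Dpysl4 turned from 0.12 to -0.0023. The cause of these shifts was not tested. With 3 mice per age, changes of the size of that of Gap43 in the presence of 1 low library cannot be resolved. Members had at least 359 counts in each library, and the parts of counting and of the mice in the spread were not separated.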
